A study of Rattus norvegicus with 16 samples.

Results

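Claudins, connexins and cadherins are membrane proteins that join the cells of the cornea to each other, and 47 of their genes were followed here in rat corneas 2 days after suture placement. The genes were taken by symbol: every claudin (*Cldn*), connexin (*Gja*, *Gjb*, *Gjc* and *Gjd*) and numbered cadherin (*Cdh*) except *Cdh5*, with the tight junction genes *Ocln*, *F11r*, *Tjp1* and *Tjp3*, wherever a probe set carried that symbol alone. They came to 16 claudins, 4 tight junction membrane or scaffold genes, 11 connexins and 16 cadherins, read by 66 of the 31042 probe sets tested, out of 14217 genes in all. The rule reads symbols only. Of the 47 genes 31 lay above the 40th percentile of their array on at least 4 arrays, while 16 did not.

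The study took the RNA of 16 corneas of male Wistar rats aged 12 to 16 weeks, 1 Affymetrix array per cornea and 4 corneas per group. Naïve corneas carried no sutures and received no treatment. The corneas of the 3 other groups carried 2 sutures placed temporally and received 4 eyedrops per day for 2 days, 8 in all, of goat IgG (the sham treatment, which the sample labels name an anti-IgG antibody), of a rat-specific antibody against Vegf, or of dexamethasone, a synthetic glucocorticoid. The labels give 20 mg/ml for both antibodies and 1 mg/ml for dexamethasone, the study's methods give the antibody dose in µg/ml. All sutured groups thus shared the wound, no group was sutured and left untreated, and the whole tissue was measured at a single time. The labels describe the tissue as cornea freed of the scleral rim, the methods as the area between the sutures and the temporal limbus, which for naïve corneas leaves the exact area unstated. The labels number the corneas without naming animals. The methods place sutures in the right cornea, so each sutured cornea came from a separate rat, which is not stated for the naïve corneas. The p-values measure the spread between these corneas.

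Tight junctions seal the space between neighbouring epithelial cells near their free surface. Claudins form their strands and set which ions and solutes pass, occludin (*Ocln*) and the junctional adhesion molecule *F11r* share the membrane with them, and the zonula occludens proteins of the *Tjp* genes tie the strands to actin. Connexins assemble into gap junction channels through which small molecules pass from cell to cell, and cadherins bind cells to each other in adherens junctions through calcium. In the cornea the outermost epithelial cells carry the tight junctions that keep tear fluid out. The endothelium on the inner face, whose junctions are leakier, pumps fluid out of the stroma.

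Most junction genes did not pass the test in any sutured group, and those that did were few. *Cldn1*, the sealing claudin of stratified epithelia, rose in all 3 sutured groups. *Cldn8*, known from the tight segments of the kidney tubule, and *Cldn10*, which forms ion-selective pores between cells, fell in all 3. *Cdh2* (N-cadherin), the cadherin of neurons, stromal cells and corneal endothelium, fell with IgG and anti-*Vegf* but was not called under dexamethasone. With each gene read from its probe set of highest mean signal, *Cdh2* was the only junction gene called between dexamethasone and IgG. Other probe sets of *Cldn1*, *Gja1*, *Ocln*, *Tjp1* and *Cdh2* itself were called lower under dexamethasone there. On the mean of the probe sets of a gene, *Gja1*, *Ocln* and *Tjp1* were called and *Cdh2* was not. *Cdh1* (E-cadherin), the cadherin of epithelia, passed in no comparison, with signals between 12.37 and 12.89 on all 16 arrays.

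Against naïve corneas a gene was called where its adjusted p (limma, Benjamini-Hochberg over all probe sets) was under 0.05 and its fold change reached 1.5, while a comparison of treatments used the adjusted p alone. Each gene was read from its probe set with the highest mean signal, here the top probe set. In IgG treated corneas 1 junction gene was called higher (*Cldn1*) and 3 lower (*Cdh2*, *Cldn8* and *Cldn10*), where 6.32% of all genes were called higher and 5.02% lower. In anti-*Vegf* treated corneas 1 was higher (*Cldn1*) and 4 were lower (those 3 and *Cdh13*), beside 6.82% higher and 5.94% lower of all genes. In dexamethasone treated corneas 1 was higher (*Cldn1*) and 2 were lower (*Cldn8* and *Cldn10*), beside 8.19% and 4.45%. A single rise among 47 genes (2.13%) lay below the share of all genes called higher in each of the 3 comparisons, and the falls (6.38%, 8.51% and 4.26%) lay near the share of all genes called lower. The median log2 change over the 47 genes was −0.07 with IgG, −0.13 with anti-*Vegf* and −0.08 under dexamethasone, while that over all genes was −0.01, −0.01 and 0.00. In the same order 38, 35 and 35 of the 47 genes changed by less than 0.3 on the log2 scale.

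**Figure D1:**
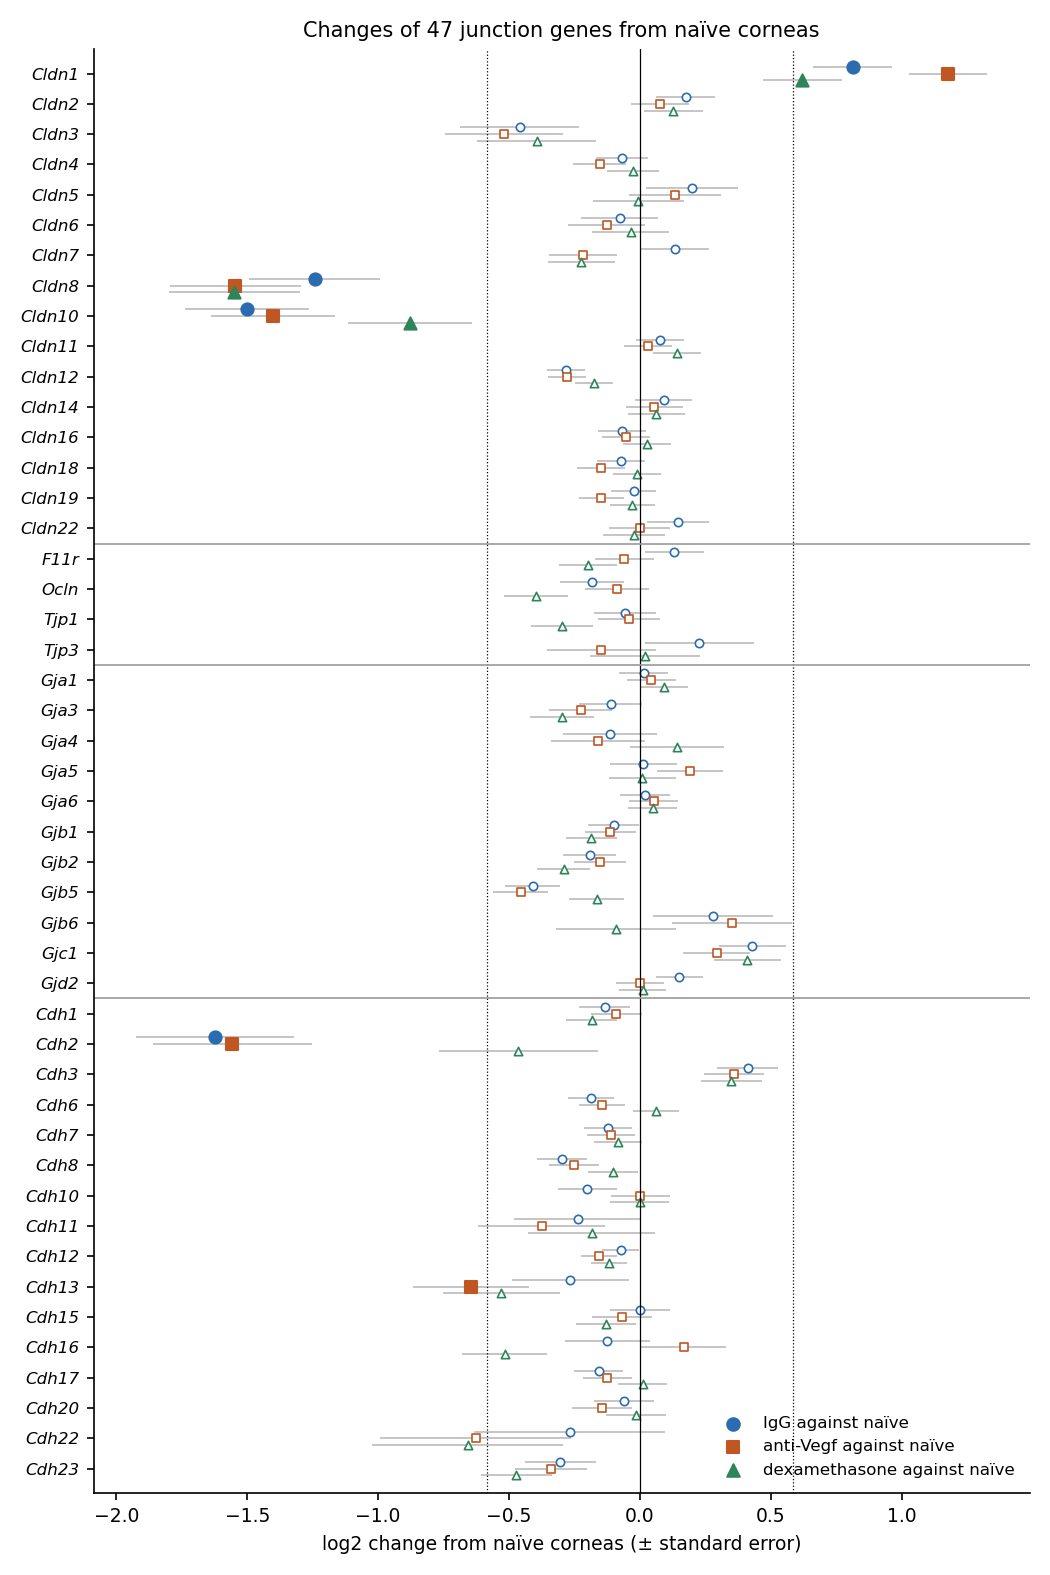
Change of each of the 47 junction genes from naïve corneas, on the log2 scale with its standard error, read from the top probe set, with claudins, tight junction membrane and scaffold genes, connexins and cadherins separated by lines. Filled symbols passed both limits, open symbols did not, and dotted lines mark a fold change of 1.5. *Cldn1* stands apart on the right, *Cldn8*, *Cldn10* and *Cdh2* on the left, and nearly all others lie between the dotted lines.

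Promoter windows are shown for the 3 claudins that moved in every sutured group and for 2 junction genes with a searched motif, so that the sequence can be set beside the values. RefSeq windows of the rat build GRCr8 were found for 35 of the 47 genes, 36 windows in all because *Gjb6* has 2, and none was found for *Cdh1*, *Cdh2*, *Cdh11*, *Cdh13* or *Cdh16*. Each sequence below is the 250 bases before the start, 5′ to 3′ on the strand of the gene, in lower case with searched motifs in capitals. They lie at chr11:87926126-87926375 on the + strand for *Cldn1*, chr11:41364331-41364580 on the − strand for *Cldn8*, chr15:102269608-102269857 on the + strand for *Cldn10*, chr2:33441199-33441448 on the − strand for *Ocln* and chr20:36302314-36302563 on the + strand for *Gja1*.
Cldn1: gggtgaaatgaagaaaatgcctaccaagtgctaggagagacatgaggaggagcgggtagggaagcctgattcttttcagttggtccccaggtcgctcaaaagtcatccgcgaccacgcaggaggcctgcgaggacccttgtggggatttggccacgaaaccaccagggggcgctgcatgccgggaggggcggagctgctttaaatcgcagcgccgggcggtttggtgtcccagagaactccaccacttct
Cldn8: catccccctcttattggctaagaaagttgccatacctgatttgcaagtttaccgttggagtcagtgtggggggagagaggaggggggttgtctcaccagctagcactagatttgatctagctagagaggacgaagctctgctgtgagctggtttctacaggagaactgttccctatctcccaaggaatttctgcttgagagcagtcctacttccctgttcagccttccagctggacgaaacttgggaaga
Cldn10: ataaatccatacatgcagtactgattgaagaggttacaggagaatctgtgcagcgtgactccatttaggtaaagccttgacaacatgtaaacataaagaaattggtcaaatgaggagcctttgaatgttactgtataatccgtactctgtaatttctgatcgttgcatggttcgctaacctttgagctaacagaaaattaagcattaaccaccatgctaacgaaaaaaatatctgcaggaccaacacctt
Ocln: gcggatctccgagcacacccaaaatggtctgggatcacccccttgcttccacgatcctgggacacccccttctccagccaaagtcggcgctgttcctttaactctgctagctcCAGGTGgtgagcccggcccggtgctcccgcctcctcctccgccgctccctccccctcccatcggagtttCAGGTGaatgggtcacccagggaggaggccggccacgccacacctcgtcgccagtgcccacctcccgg
Gja1: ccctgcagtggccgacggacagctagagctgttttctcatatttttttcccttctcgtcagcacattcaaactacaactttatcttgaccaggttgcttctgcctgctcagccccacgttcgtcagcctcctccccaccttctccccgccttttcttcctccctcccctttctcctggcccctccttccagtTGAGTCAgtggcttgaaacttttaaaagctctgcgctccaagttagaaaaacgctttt
The motifs were searched on both strands of the whole window, from 250 bases before to 50 after the start: the E-box CAGGTG, which Snai1 and Zeb repressors bind, the AP-1 site TGACTCA or TGAGTCA, and AGAACA, part of the glucocorticoid receptor site. None occurs in the windows of *Cldn1*, *Cldn8* and *Cldn10*. *Ocln* holds 2 E-boxes, which begin 137 and 68 bases before the start, and *Gja1* holds 1 AP-1 site that begins 58 bases before it. Over the 36 windows, 12 hold an E-box (33.3%, against 18.8% of 33469 windows of all genes), 3 an AP-1 site (8.33% against 4.63%) and 4 the receptor motif (11.1% against 20.7%). The windows differ in base composition, with 59.2% G and C before the start of *Cldn1*, 50.4% for *Cldn8*, 38% for *Cldn10*, 66.4% for *Ocln* and 51.2% for *Gja1*, where the median of all windows is 51.2%. A match of letters is a description of the window, not a bound site.

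Among the claudins, *Cldn1* carried the only rise. Its top probe set (1396150_at) read 9.77, 9.27, 9.64 and 9.44 log2 units on naïve arrays 1 to 4, 10.65, 10.25, 10.05 and 10.42 on the IgG arrays (F17, F19, F22 and F23), 10.49, 10.71, 10.94 and 10.69 on the anti-*Vegf* arrays (F1x, F2, F6 and F7) and 10.09, 9.86, 10.46 and 10.20 on the dexamethasone arrays (F25, F26, F27 and F30). Every sutured cornea lay above every naïve cornea, with the anti-*Vegf* corneas above all dexamethasone corneas. The mean rose 1.76-fold in IgG treated corneas (log2 change 0.81, standard error 0.15, adjusted p = 0.000884), 2.26-fold with anti-*Vegf* (1.18, adjusted p = 3.65e-05) and 1.54-fold with dexamethasone (0.62, adjusted p = 0.00659). Dexamethasone thus lay 0.56 log2 units below anti-*Vegf* (adjusted p = 0.0362), and did not pass against IgG (−0.19, adjusted p = 0.466). Anti-*Vegf* lay 0.36 above IgG (95% interval 0.05 to 0.68, adjusted p = 0.757).

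The 2 other probe sets of *Cldn1* agreed on the rise and spread on its size. The second (1383946_at) rose by 0.99, 1.38 and 0.75 in IgG, anti-*Vegf* and dexamethasone treated corneas, and the third (1387470_at) by 1.19 and 1.36 in the first 2 of these groups, with 0.47 (adjusted p = 0.119) under dexamethasone. All 3 probe sets were lower under dexamethasone than with anti-*Vegf*, by 0.56, 0.63 and 0.89. Against IgG only the third was called lower, by 0.72 (adjusted p = 0.0334). The call of the top probe set under dexamethasone fell below the fold limit without dexamethasone F27 (0.52) or naïve 2 (0.54) and on centring on reference genes (0.32, and 0.54 for IgG), and its call against anti-*Vegf* was lost without dexamethasone F25, F26 or F30 or anti-*Vegf* F2, F6 or F7, with adjusted p up to 0.113, on centring on reference genes (−0.51, adjusted p = 0.0603) and when only the 2 groups were fitted (adjusted p = 0.0561). On that centring the second probe set also fell below the fold limit under dexamethasone against naïve corneas (0.45, adjusted p = 0.0124). The second probe set kept its call against anti-*Vegf* without each of the 8 arrays, with adjusted p of at most 0.04999, and the calls of the third were lost against IgG without dexamethasone F25 or F26 or IgG F17, F19 or F23 (adjusted p up to 0.107) and against anti-*Vegf* without F6 (0.0524).

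*Cldn8* fell by more than 2-fold in every sutured group. Its single probe set (1385058_at) read 9.64, 9.70, 9.81 and 9.83 on the naïve arrays, 8.49, 8.47, 8.54 and 8.51 on the IgG arrays, 8.80, 8.17, 7.69 and 8.13 on the anti-*Vegf* arrays and 9.06, 7.53, 8.22 and 7.96 on the dexamethasone arrays. All 12 sutured corneas lay below the naïve ones, the IgG corneas within 0.03 (SD) of each other and the dexamethasone corneas with an SD of 0.64. The fall was 2.36-fold in IgG (log2 change −1.24, standard error 0.25, adjusted p = 0.00168), 2.92-fold in anti-*Vegf* (−1.55, adjusted p = 0.000279) and 2.93-fold in dexamethasone treated corneas (−1.55, adjusted p = 0.000321). Between treatments the differences were −0.30, −0.31 and 0.00 log2 units, none called (adjusted p = 0.959, 0.484 and 0.997).

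*Cldn10* fell in the same 3 groups but less far under dexamethasone. Its probe set (1372492_at) read 9.85, 9.89, 9.86 and 9.29 on the naïve arrays, 7.49, 8.34, 8.65 and 8.41 on the IgG arrays, 8.22, 8.95, 7.83 and 8.28 on the anti-*Vegf* arrays and 8.84, 8.89, 8.76 and 8.89 on the dexamethasone arrays. The sutured corneas all lay below the naïve ones, and the 4 dexamethasone corneas lay above all 4 IgG corneas. The falls were 2.83-fold (log2 change −1.50, standard error 0.24, adjusted p = 0.000252), 2.64-fold (−1.40, adjusted p = 0.000392) and 1.84-fold (−0.88, adjusted p = 0.013) in IgG, anti-*Vegf* and dexamethasone treated corneas. The differences of dexamethasone from IgG (0.62, adjusted p = 0.11) and from anti-*Vegf* (0.52, adjusted p = 0.207) were not called. With naïve arrays 1 and 2 both left out, an alternative chosen after the data were seen, the call under dexamethasone was lost (−0.73, adjusted p = 0.109).

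**Figure D2:**
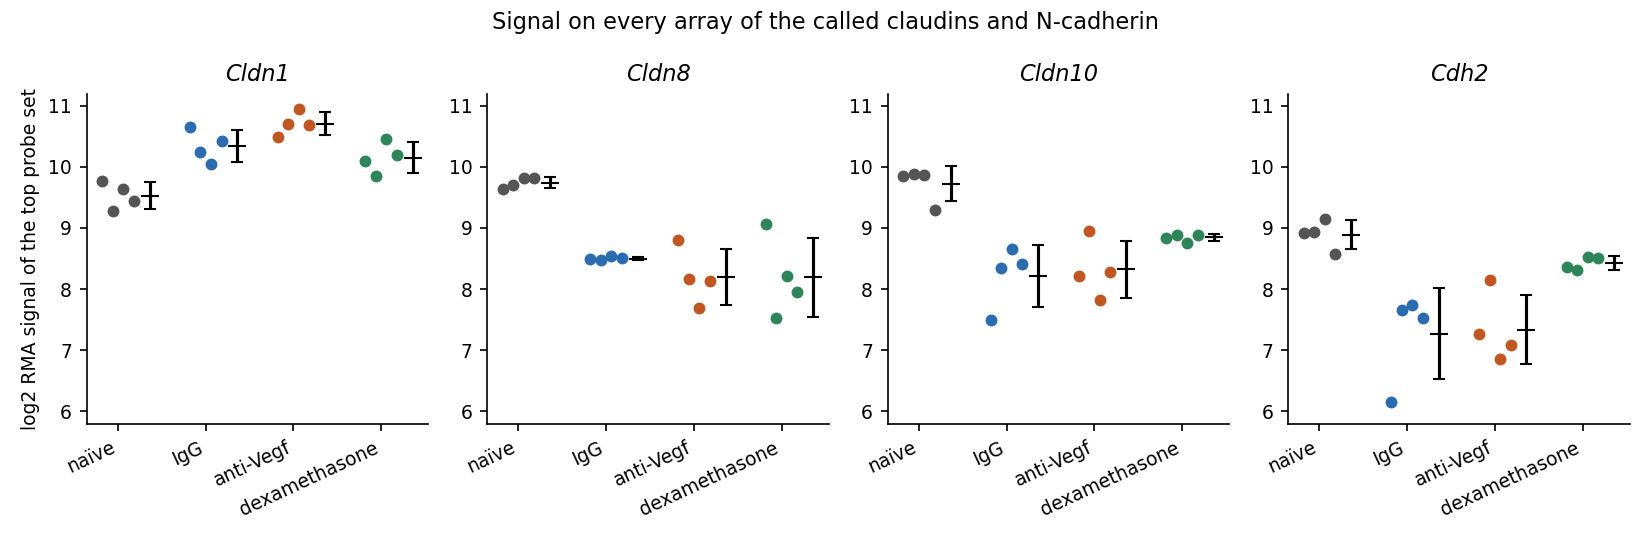
log2 RMA signal of the top probe set of *Cldn1*, *Cldn8*, *Cldn10* and *Cdh2* on every array (points), with the mean and SD of the 4 corneas of each group beside them. *Cldn1* is higher on all sutured arrays, *Cldn8* and *Cldn10* lower, and *Cdh2* is low on the IgG and anti-*Vegf* arrays and between 8.31 and 8.52 on the dexamethasone arrays.

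The 13 other claudins were not called in any comparison. *Cldn4* and *Cldn7*, sealing claudins of simple and stratified epithelia, read 12.21 ± 0.03 and 10.998 ± 0.12 (SD, n = 4) in naïve corneas and changed by −0.15 to −0.03 and by −0.22 to 0.13 in the sutured groups. *Cldn12* was lower by 0.28 in both IgG and anti-*Vegf* treated corneas (adjusted p = 0.00902 and 0.00935), without reaching a fold change of 1.5. *Cldn3* changed by −0.46, −0.52 and −0.39 with an SD of up to 0.51 within a group and did not pass (adjusted p = 0.152, 0.107 and 0.254). *Cldn5*, the claudin of vessel endothelium, was among the 5 claudins at or below the low-signal limit and read 4.45 ± 0.14 in naïve corneas, with changes of 0.20, 0.13 and −0.01. *Cldn16*, the nearest neighbour of *Cldn1* on chromosome 11, changed by −0.07, −0.05 and 0.03, and *Cldn3* lies beside *Cldn4* on chromosome 12.

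Among the tight junction membrane and scaffold genes no top probe set was called, while lower probe sets of *Ocln* and *Tjp1* were. The top probe set of *Ocln* (1378753_at) read 10.38, 10.61, 10.23 and 10.17 on the naïve arrays, 10.17, 10.09, 10.10 and 10.28 on the IgG arrays, 10.31, 10.25, 10.32 and 10.15 on the anti-*Vegf* arrays and 10.19, 10.04, 10.03 and 9.55 on the dexamethasone arrays. The groups overlap, and the change under dexamethasone was −0.40 (adjusted p = 0.0279) without reaching the fold limit.

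The second probe set of *Ocln* (1398281_at) read 8.997, 8.91, 8.99 and 8.91 on the naïve arrays, 8.74, 8.62, 8.66 and 8.76 on the IgG arrays, 8.90, 8.75, 8.77 and 8.57 on the anti-*Vegf* arrays and 8.50, 8.13, 8.27 and 8.04 on the dexamethasone arrays. All 4 dexamethasone corneas lay below every other cornea. It was lower under dexamethasone than in naïve corneas by 0.72 (standard error 0.09, adjusted p = 5.29e-05), than with IgG by 0.46 (adjusted p = 0.00616) and than with anti-*Vegf* by 0.51 (adjusted p = 0.00513), and these 3 calls held without each array in turn. Both probe sets were lower under dexamethasone, and the mean of the pair was called lower against IgG (−0.34, adjusted p = 0.0377) and against anti-*Vegf* (−0.41, adjusted p = 0.0199). Against naïve corneas the mean of the pair was lower by 0.56 (adjusted p = 0.000447), short of the fold limit.

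*Tjp1*, the scaffold zonula occludens protein, was not called on its top probe set (1372473_at), which read 12.15 ± 0.23 in naïve corneas and changed by −0.06, −0.04 and −0.30 in the 3 sutured groups. Its second probe set (1395337_at), looked at after its values were seen, read 7.0002, 6.82, 6.63 and 6.54 on the naïve arrays, 7.32, 8.31, 7.60 and 7.66 on the IgG arrays, 7.72, 7.51, 7.82 and 7.24 on the anti-*Vegf* arrays and 6.59, 6.24, 6.91 and 6.41 on the dexamethasone arrays. The IgG and anti-*Vegf* corneas lay above all naïve and dexamethasone corneas. It was higher than naïve by 0.98 with IgG (adjusted p = 0.00139) and 0.83 with anti-*Vegf* (adjusted p = 0.00439) and changed by −0.21 under dexamethasone (adjusted p = 0.512), which lay below IgG by 1.19 (adjusted p = 0.00145) and below anti-*Vegf* by 1.04 (adjusted p = 0.00542). All but 1 of these calls held without each array and under every rescaling, the exception being anti-*Vegf* on centring on reference genes (0.48, adjusted p = 0.0563). *Tjp3* and *F11r* changed by −0.15 to 0.23 and by −0.20 to 0.13 and were called in no comparison.

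No connexin was called on its top probe set in any of the 6 comparisons. *Gja1*, the connexin most widespread in epithelium and stroma, read 13.04 ± 0.22 (SD, n = 4) in naïve corneas (1372002_at), 13.05 ± 0.03 with IgG, 13.08 ± 0.04 with anti-*Vegf* and 13.13 ± 0.11 under dexamethasone. *Gjb2*, an epithelial connexin, fell by 0.29 under dexamethasone (adjusted p = 0.0474), below the fold limit, from 13.48 ± 0.06 to 13.19 ± 0.10. *Gjb5* was lower by 0.41 and 0.46 in IgG and anti-*Vegf* treated corneas (adjusted p = 0.0089 and 0.00435), and *Gjc1* was higher by 0.43 in IgG (adjusted p = 0.0206) and 0.41 in dexamethasone treated corneas (adjusted p = 0.03), all below the fold limit. *Gjb6*, which lies beside *Gjb2* on chromosome 15, changed by 0.28, 0.35 and −0.09 with an SD of up to 0.49, and was not called. *Gja4* and *Gja5*, connexins of vessel walls, changed by −0.16 to 0.14 and by 0.01 to 0.19.

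The second probe set of *Gja1* (1369640_at), also looked at after its values were seen, behaved differently from the top one. It read 8.27, 8.17, 9.29 and 9.40 on the naïve arrays, 9.54, 9.70, 9.78 and 10.07 on the IgG arrays, 9.91, 8.91, 9.28 and 9.33 on the anti-*Vegf* arrays and 8.45, 8.29, 8.30 and 8.65 on the dexamethasone arrays. The naïve arrays split, 1 and 2 beside the dexamethasone arrays and 3 and 4 beside the anti-*Vegf* arrays. It was higher in IgG treated than in naïve corneas by 0.99 (adjusted p = 0.00902) and lower under dexamethasone than with IgG by 1.35 (adjusted p = 0.00413) and than with anti-*Vegf* by 0.94 (adjusted p = 0.0388). With naïve arrays 1 and 2 left out the rise with IgG was 0.43 (adjusted p = 0.182), and the call against anti-*Vegf* was lost without dexamethasone F25, F26 or F27 or anti-*Vegf* F1x, F6 or F7 (adjusted p up to 0.107).

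The same arrays differed in a control of RNA length. Beta-actin is read by control probe sets toward both ends of its transcript, and the difference of 5′ less 3′ signal drops where the labelled RNA is shorter. It was −1.69, −1.75, −0.87 and −0.82 on naïve arrays 1 to 4. It lay between −0.79 and −0.59 on the IgG arrays, between −1.19 and −0.60 on the anti-*Vegf* arrays and between −1.38 and −0.95 on the dexamethasone arrays. The arrays with the lowest control values, naïve 1 and 2 and the 4 dexamethasone arrays with anti-*Vegf* F2, were also the 7 lowest for this probe set of *Gja1*. The second probe set of *Tjp1* read higher on naïve arrays 1 and 2 than on 3 and 4. The part of RNA length in these results was not tested, and the place of the probe sets along their transcripts is not given in the tables used here.

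**Figure D3:**
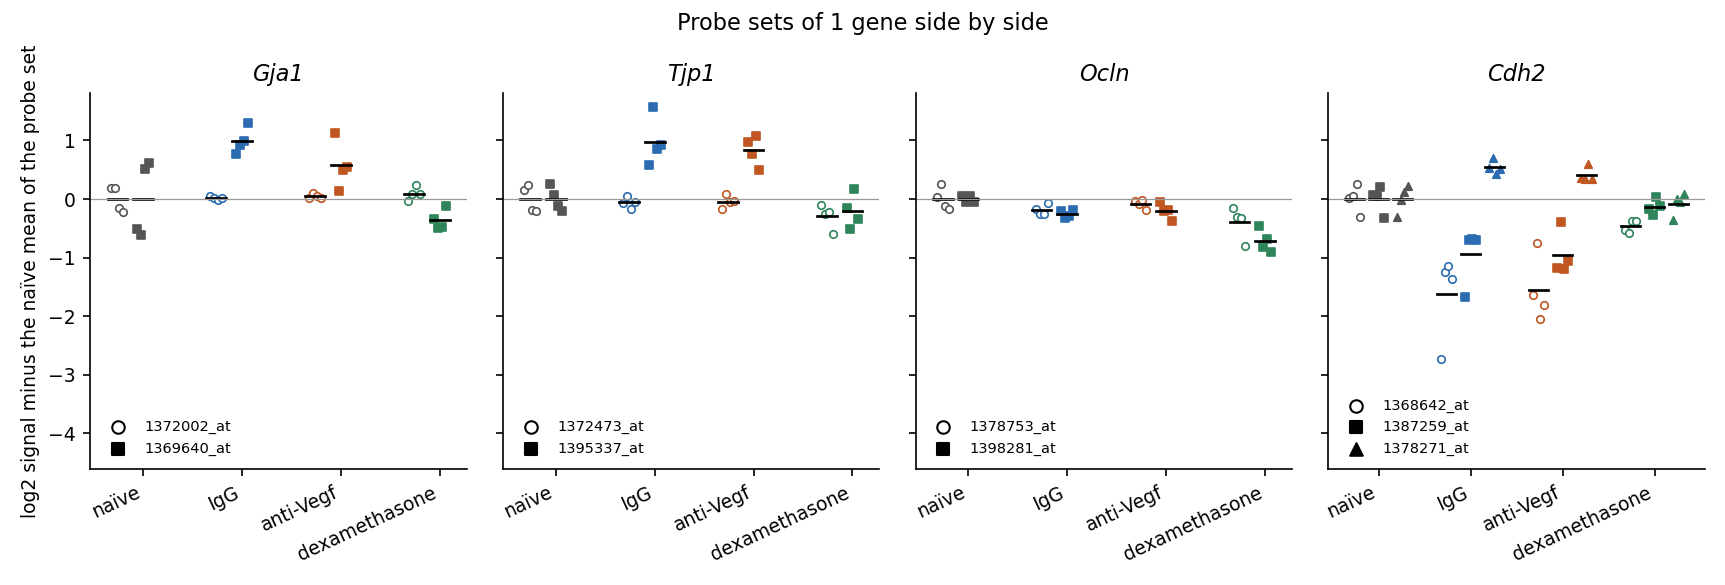
log2 signal of each probe set of *Gja1*, *Tjp1*, *Ocln* and *Cdh2* above the low-signal limit on every array, minus the mean of the 4 naïve arrays of that probe set, with group means as bars. Open circles are the top probe set. The second probe sets of *Gja1* and *Tjp1* lie up to 1 unit above 0 in the IgG and anti-*Vegf* means where the top ones stay near 0, and the third of *Cdh2* goes the opposite way from the others.

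Counted over probe sets in place of genes, 10 of 66 were called with IgG, 12 with anti-*Vegf* and 5 under dexamethasone against naïve corneas, beside 10.7%, 10.9% and 9.67% of all probe sets, which makes 15.2%, 18.2% and 7.58% of the 66. Of the 13 genes with several probe sets, 5 had at least 1 called in IgG against naïve, and in 1 of these, *Cldn1*, all agreed. *Tjp1*, *Gja1* and *Cdh11* were called there on a lower probe set only.

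Among the cadherins, read from their top probe sets, *Cdh2* changed most with IgG and anti-*Vegf*, and *Cdh22* under dexamethasone (−0.66, adjusted p = 0.235, not called). The other probe set of *Cdh22* went the opposite way under dexamethasone (0.14, not called). The top probe set of *Cdh2* (1368642_at) read 8.91, 8.94, 9.14 and 8.58 on the naïve arrays, 6.16, 7.65, 7.75 and 7.53 on the IgG arrays, 7.26, 8.14, 6.85 and 7.09 on the anti-*Vegf* arrays and 8.36, 8.31, 8.52 and 8.52 on the dexamethasone arrays. Every dexamethasone cornea lay above every IgG and anti-*Vegf* cornea and below every naïve one, and IgG F17 lay far below its group. The gene fell 3.08-fold in IgG (log2 change −1.62, standard error 0.30, adjusted p = 0.000943) and 2.94-fold in anti-*Vegf* treated corneas (−1.56, adjusted p = 0.00121), and its change under dexamethasone was −0.46 (adjusted p = 0.324). Dexamethasone corneas were higher than IgG corneas by 1.16 (2.23-fold, adjusted p = 0.024) and than anti-*Vegf* corneas by 1.09 (2.13-fold, adjusted p = 0.04).

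The fall of *Cdh2* held without each array in turn, with IgG F17 left out as the smallest value against naïve (−1.25). The differences between treatments were less firm. That from IgG was lost without dexamethasone F27 (1.13, adjusted p = 0.0619), and that from anti-*Vegf* was lost without any of the 8 arrays except anti-*Vegf* F2 (adjusted p up to 0.124) and under cyclic loess (1.06, adjusted p = 0.0546). The second probe set (1387259_at) gave −0.94 and −0.96 against naïve in IgG and anti-*Vegf* treated corneas and 0.80 and 0.83 for dexamethasone over IgG and anti-*Vegf* (adjusted p = 0.0255 and 0.029), calls that were lost without dexamethasone F27 or IgG F17 (up to 0.073) and without dexamethasone F27 or F30 or anti-*Vegf* F1x, F6 or F7 (up to 0.0888). The third (1378271_at) had a weaker signal, with a mean difference from the top probe set of −3.25 log2 units in naïve corneas. It ran the other way, 0.54 and 0.41 above naïve in IgG and anti-*Vegf* treated corneas, not called, and lower under dexamethasone by 0.62 and 0.49 (adjusted p = 0.00389 and 0.0208). The call of the last was lost without dexamethasone F25 or anti-*Vegf* F6 (up to 0.0693), and the mean of the 3 probe sets was called in neither comparison of dexamethasone (0.45 and 0.48, adjusted p = 0.112 and 0.106).

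Markers of the corneal endothelium moved with *Cdh2*. Of 5 measured markers 4 were called lower in both IgG and anti-*Vegf* treated corneas, namely *Slc4a11*, *Col8a1*, *Col8a2* and *Atp1b1*, and 2 (*Slc4a11* and *Col8a1*) under dexamethasone. *Atp1b1* was higher under dexamethasone than with IgG by 0.88 (adjusted p = 0.0101), and *Atp1b1* and *Col8a2* were higher than with anti-*Vegf* by 0.90 and 0.88 (adjusted p = 0.0129 and 0.0233). The mean of the 5 ran from 9.97 to 10.47 on the naïve arrays, 8.66 to 9.73 on the IgG arrays, 9.02 to 9.65 on the anti-*Vegf* arrays and 9.71 to 9.89 on the dexamethasone arrays. Its lowest array was IgG F17, as for *Cdh2* and *Cldn10*, its highest anti-*Vegf* array was F2 and its lowest naïve array was 4, again as for both genes. The highest IgG array (F22) and the lowest anti-*Vegf* array (F6) were shared as well. Other arrays differed. The lowest dexamethasone array was F30, where both genes were among the highest of that group, and neither gene was highest on naïve array 1, which had the highest marker mean. Fewer cells of a type and less RNA per cell cannot be told apart in bulk tissue, and the part of the endothelium in the results on *Cdh2* and *Cldn10* was not tested.

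Other cell types differed between the groups as well. All 5 leukocyte and all 4 neutrophil markers were called higher in each sutured group. Keratocyte markers were called lower for 1 of 5 with IgG, 3 of 5 with anti-*Vegf* and none under dexamethasone. Of 6 epithelial markers 1, *Krt14*, was called against naïve corneas, higher by 1.62, 1.69 and 1.55 in the 3 sutured groups. *Pax6* changed by −0.44, −0.45 and −0.54 (adjusted p = 0.0238, 0.0208 and 0.00805). *Aldh3a1* changed by −0.27, −0.37 and −0.25 (adjusted p = 0.00609, 0.000639 and 0.0113), and these falls stayed below the fold limit. *Krt12*, *Krt5* and *Epcam* changed by −0.11 to 0.19. The marker *Epcam* was lower under dexamethasone than with anti-*Vegf* by 0.29 (adjusted p = 0.0343), the comparison in which *Cldn1* was lower, and its part in that result was not tested. The mean of the 6 epithelial markers stayed between 13.56 and 13.77 on all arrays, a mean that joins the rise of *Krt14* with the falls of *Pax6* and *Aldh3a1*. The mean of 4 lens markers lay between 8.04 and 10.69 on the dexamethasone arrays and between 5.23 and 6.84 on all others. Dexamethasone F26 had the most lens signal (10.69) and the lowest *Cdh2* of its group (8.31). Without it *Cdh2* was higher than with IgG by 1.20 (adjusted p = 0.0473) and the call against anti-*Vegf* was lost (1.13, adjusted p = 0.0711). The lens mean of the other 3 dexamethasone arrays lay between 8.04 and 8.99, still above all arrays of the other groups. Leaving out F26 therefore cannot separate lens tissue from treatment. *Gja3*, the lens connexin, was below the low-signal limit and changed by −0.30 on its top probe set (adjusted p = 0.0941) and by 0.18 on the other (adjusted p = 0.477) under dexamethasone. The part of lens tissue in these results was not tested.

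**Figure D4:**
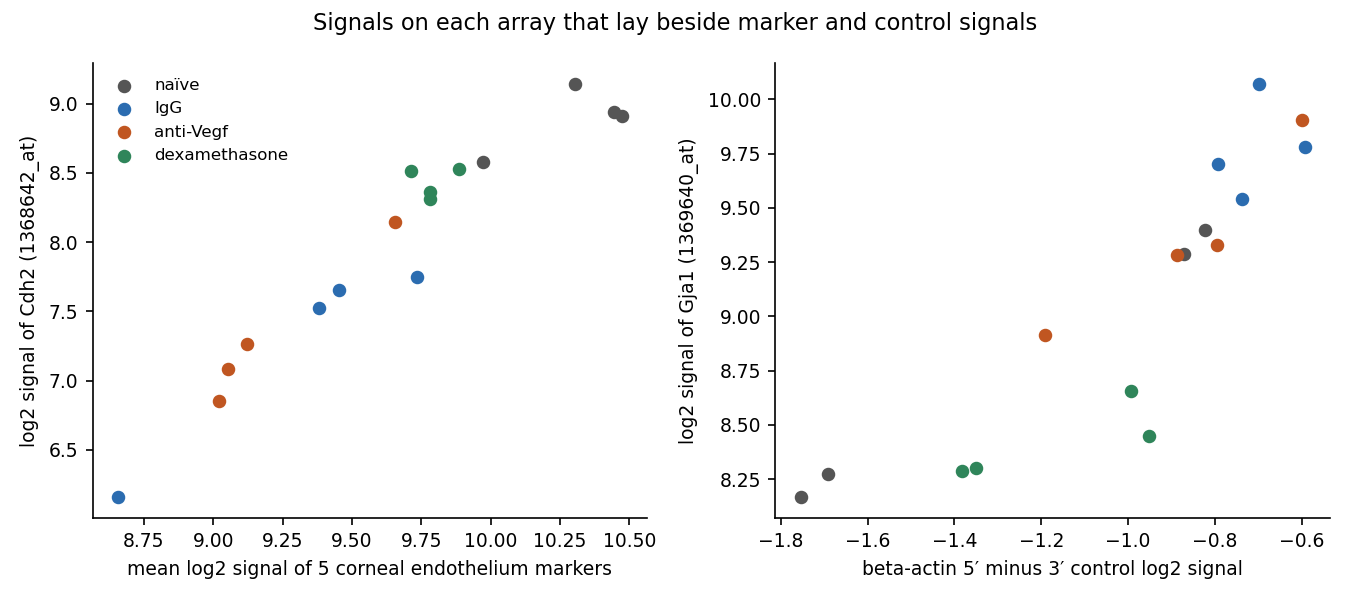
Left, log2 signal of *Cdh2* (1368642_at) on each of 16 arrays against the mean log2 signal of 5 corneal endothelium markers; right, log2 signal of the second probe set of *Gja1* (1369640_at) against the 5′ minus 3′ control signal of beta-actin. IgG F17 is lowest on both axes of the left panel, and naïve arrays 1 and 2 are lowest on both axes of the right panel.

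*Cdh16*, a cadherin known from kidney tubules, was called in 1 comparison. It read 5.61, 5.62, 5.99 and 5.96 on the naïve arrays, 5.75, 5.46, 5.75 and 5.74 on the IgG arrays, 6.11, 5.73, 5.93 and 6.09 on the anti-*Vegf* arrays and 5.26, 5.43, 4.75 and 5.68 on the dexamethasone arrays. Dexamethasone corneas lay below anti-*Vegf* corneas without overlap, by 0.68 (standard error 0.16, adjusted p = 0.0197), and overlapped with the naïve ones (−0.52, adjusted p = 0.0305, below the fold limit). The call was lost without anti-*Vegf* F1x or F7 (adjusted p = 0.052 and 0.0544) and when only the 2 groups were fitted (adjusted p = 0.0672). The signal was low, below the median signal of the arrays (6.55 to 6.61) on every array.

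*Cdh11*, a cadherin of mesenchymal cells, was not called on its top probe set (1388936_at), which read 10.43, 10.45, 9.53 and 9.70 on the naïve arrays, 9.23, 10.04, 10.03 and 9.86 on the IgG arrays, 9.78, 10.19, 9.15 and 9.48 on the anti-*Vegf* arrays and 9.85, 9.74, 10.04 and 9.75 on the dexamethasone arrays. Naïve arrays 1 and 2 lay above the other naïve arrays, and all groups overlapped, with changes of −0.24, −0.37 and −0.18 (adjusted p = 0.516, 0.288 and 0.671). The lowest of its probe sets (1391146_at), below the low-signal limit, was called lower by 0.70 and 0.71 in IgG and anti-*Vegf* treated corneas. The first call was lost without IgG F17 (−0.54) or naïve 2 (−0.56) and the second without naïve 2 (−0.56).

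*Cdh13* (T-cadherin), which is anchored in the membrane by a lipid and lacks the part that binds catenins, falls outside the rule for full values and is named because the count of calls is small. Its 3 probe sets were lower in anti-*Vegf* treated than in naïve corneas by 0.64, 0.75 and 0.62 (adjusted p = 0.0426, 0.00602 and 0.0188). The changes in IgG and dexamethasone treated corneas were −0.45 to −0.22 and −0.53 to −0.43, none called, and anti-*Vegf* was not called apart from either treatment. On the top probe set 1 naïve array (6.92) lay within the range of the anti-*Vegf* arrays (6.35 to 6.98), and the call was lost without anti-*Vegf* F2, F6 or F7 or naïve 1 or 4 (adjusted p up to 0.132). *Cdh3* (P-cadherin), the cadherin of basal epithelial cells and the neighbour of *Cdh1* on chromosome 19, was higher by 0.41, 0.36 and 0.35 in the 3 sutured groups (adjusted p = 0.0144, 0.0294 and 0.0383), below the fold limit.

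Between treatments few junction genes were called. Anti-*Vegf* against IgG gave none of the 47 (0% of all genes were called), with changes between −0.38 and 0.36, and 2 genes, *Cldn1* and *Cldn7*, at an unadjusted p under 0.05, where 6.63% of all genes passed. A mean-variance trend with robust moderation and array weights, both in limma, called none of the 47 either. Dexamethasone against IgG gave 1 gene higher (*Cdh2*) and none lower, beside 7.41% and 3.16% of all genes, and 7 of the 47 at an unadjusted p under 0.05, where 25.4% of all genes passed. Dexamethasone against anti-*Vegf* gave 1 gene higher (*Cdh2*) and 2 lower (*Cdh16* and *Cldn1*), beside 4.63% and 2.5%. Over probe sets, 7 of 66 (10.6%) and 10 of 66 (15.2%) were called in the last 2 comparisons. Of all probe sets, which include those without a symbol, 9.94% and 6.78% were called. With any probe set of a gene counted, 5 and 6 of the 47 genes were called, beside 15.3% and 10.4% of all genes. *Ocln*, *Tjp1* and *Gja1* entered through their second probe sets. The comparisons share groups, so their calls are not independent of each other.

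Of 43 further genes, 5 were transcription factors known to repress *Cdh1*, and the rest were partners and relatives of the junction proteins above. Among the 43, 2 were called higher and 4 lower with IgG, 2 and 6 with anti-*Vegf*, and 3 and 5 under dexamethasone against naïve corneas. The shares of all genes called higher and lower in these comparisons were 6.32% and 5.02%, 6.82% and 5.94%, and 8.19% and 4.45%, so the counts lie below the background for rises and above it for falls, with no test made. *Pvr*, a nectin-like adhesion molecule, rose by 1.23, 1.12 and 1.29. *Zeb2*, a repressor known to bind the *Cdh1* promoter, rose by 1.67, 1.62 and 1.97 while *Cdh1* was not called. It was the only 1 of the 5 transcription factors called against naïve corneas. *Jam2* fell by 1.04, 1.10 and 0.65, and *Ctnnd2*, a catenin that binds cadherin tails, fell by 0.80, 0.86 and 1.05. *Jam3*, a relative of *F11r*, fell by 0.79 and 0.83 in IgG and anti-*Vegf* treated corneas but changed by −0.13 under dexamethasone, and was higher there than with IgG by 0.66 (adjusted p = 0.0168) and than with anti-*Vegf* by 0.70 (adjusted p = 0.0158). *Pard6b*, a polarity protein of tight junctions, fell by 0.85 under dexamethasone and was lower there than with IgG by 0.49 (adjusted p = 0.0132) and than with anti-*Vegf* by 0.70 (adjusted p = 0.00253). *Nectin4*, an adhesion molecule of epithelial cells, was lower under dexamethasone than with IgG by 0.42 (adjusted p = 0.00882) and than with anti-*Vegf* by 0.39 (adjusted p = 0.0176). Of the 43, 3 were called higher and 2 lower under dexamethasone than with IgG, beside 7.41% and 3.16% of all genes. Against anti-*Vegf* 2 were higher and 3 lower, beside 4.63% and 2.5%. The other genes called were *Mpdz* against IgG (0.45, adjusted p = 0.0271) and *Crb3* against anti-*Vegf* (−0.55, adjusted p = 0.0244). *Amot* was called higher in both comparisons (0.34 and 0.37, adjusted p = 0.0482 and 0.0417).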

How the data were processed

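RNA from 16 rat corneas was hybridised to Affymetrix expression arrays, 1 array per cornea. Values were used as deposited: the authors made log2 signals with RMA in Affymetrix Expression Console, which corrects background, normalises quantiles over the arrays and sums probes into probe sets, and microarray signals carry no count depth, so the number of arrays limits the precision. Probe sets were named from the platform annotation: 20826 had a single symbol, 436 several and 9780 none, and 57 controls were left out.

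Groups followed the sample labels. All 16 arrays entered 1 limma fit (version 3.58.1, R 4.3.3) with a mean per group, moderated standard errors with 12 residual degrees of freedom from the arrays, and Benjamini-Hochberg adjustment over 31042 probe sets. Tables were made in Python 3.11.15 with pandas 2.3.3, and the fit was tested on simulated data. A gene was read from its probe set with the highest mean signal, and low signal means below the 40th percentile of the array on all but at most 3 arrays.

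Values on every array were given for genes called between treatments, for up to 3 rises and 3 falls per family among genes called in at least 2 comparisons with naïve corneas, and for *Cldn1*, *Cdh2*, *Cdh11* and *Ocln*. *Gja1*, *Tjp1* and *Cdh13* were added after their values were seen. The genes and lists were chosen with earlier results of these data known. The alternatives tried were a trend with robust moderation, array weights, fits of 2 groups, cyclic loess, centring on reference genes (7 of the 10 planned were used), a filter on low signal, other readings of several probe sets, no fold limit, unadjusted p and leaving out each array. Leaving out naïve arrays 1 and 2 together was added after the data were seen. Promoter windows came from RefSeq on GRCr8.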

Additional observations from a re-analysis of the deposited data

Results flagged for a closer look

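Of 80 groups of 4 arrays looked at, 7 held an array far from the other 3, by a gap that chance alone reaches in about 1 of 20 groups. For *Cdh2*, IgG F17 read 6.16 on the top probe set against 7.53 to 7.75 on the other IgG arrays, and 6.43 against 7.40 to 7.42 on the second. On the second probe set anti-*Vegf* F2 read 7.70 against 6.91 to 7.04, and on the third anti-*Vegf* F6 read 6.23 against 5.98 to 5.995. For *Cldn10*, naïve 4 read 9.29 against 9.85 to 9.89. For *Cdh16*, IgG F19 read 5.46 against 5.74 to 5.75. For *Cdh11*, IgG F17 read 4.16 on the third probe set against 4.75 to 4.83.

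A signal outside the comparisons also differed between groups. The poly-A control RNAs, added to the samples before labelling, had a mean log2 signal 1.98 higher on the IgG arrays and 1.78 higher on the anti-*Vegf* arrays than on the naïve arrays, with group means of 5.10 (naïve), 7.08 (IgG), 6.88 (anti-*Vegf*) and 5.17 (dexamethasone). The naïve and dexamethasone arrays thus lay apart from the IgG and anti-*Vegf* arrays on this control, the same division as for the second probe set of *Tjp1* and for *Cdh2*. Every comparison of IgG or anti-*Vegf* arrays with naïve or dexamethasone arrays crossed this division. In all of these comparisons the difference cannot be told apart from suture or treatment, and its part in their results was not tested.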

How the results depend on the processing

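No paired analysis was possible because the groups share fewer than 2 replicate numbers. Junction genes called numbered 4 with IgG against naïve corneas, and 7 when any probe set of a gene counted (14.4% of all genes then) or 9 without the fold limit (29.2%). With anti-*Vegf* 5 were called, and 12 on centring on reference genes (25.3% of all genes) or 8 without the fold limit (30.6%). Under dexamethasone 3 were called, and 12 on centring on reference genes (19.2%) or 9 without the fold limit (28.5%). That centring moved the median change of all genes by −0.27 (IgG), −0.35 (anti-*Vegf*) and −0.30 (dexamethasone), and on it *Cdh2* was called lower under dexamethasone (−0.77). Anti-*Vegf* against IgG gave 0, and 2 at an unadjusted p under 0.05 (6.63%). Dexamethasone against IgG gave 1, and 2 on reference genes (8.68%), 3 on the mean of the probe sets of a gene (*Gja1*, *Ocln* and *Tjp1*; 10.4%), 5 on any probe set (15.3%) and 7 at an unadjusted p (25.4%). Dexamethasone against anti-*Vegf* gave 3, and 1 when only these 2 groups were fitted (*Cdh2*; 3.83%), 5 on the mean of probe sets (*Cdh2* not among them; 7.24%), 6 on any probe set (10.4%) and 8 at an unadjusted p (22.7%). Leaving out 1 array gave 4 to 5 (IgG), 4 to 6 (anti-*Vegf*) and 2 to 5 (dexamethasone) against naïve corneas, 0 for anti-*Vegf* against IgG, 0 to 2 for dexamethasone against IgG and 0 to 3 against anti-*Vegf*. With naïve arrays 1 and 2 left out 4, 5 and 3 genes were called, *Cldn3* in place of *Cdh13* with anti-*Vegf*, and *Cdh16* in place of *Cldn10* under dexamethasone. Over single probe sets, 995 of 1072 alternative values kept the call or its absence, 68 lost the call and 9 gained one. Of the changes called in the main fit 0 reversed direction. Direction was not compared for changes that were not called, and some of these changed sign. *Cldn8* between dexamethasone and anti-*Vegf* ran from −0.29 to 0.22 on leaving out 1 array. The cause of these differences between settings was not tested.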
